A study of Mus musculus with 31 samples.

Results

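The islands described here are stretches of H3K4me3 that were called in mouse lung adenocarcinomas with Nkx2-1 deleted and in no overlapping place in tumors that retained Nkx2-1. They were chosen by H3K4me3 alone: an island of the deleted-tumor list on chromosomes 1 to 19 that shared not even 1 bp with an island of the positive-tumor list. There were 987 such islands (gained islands) among 30230 autosomal H3K4me3 islands of deleted tumors. The other 29243 overlapped a positive-tumor island (kept islands). The gained share of 3.26% is set by the rule, and a further 17 such islands on the sex chromosomes were left out by it.

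Chromatin immunoprecipitation with sequencing was done on whole lung tumors of mixed 129/B6 mice aged 4 to 7 months, per the labels. Positive tumors carried the label Nkx2-1 positive and deleted tumors the label Nkx2-1 deleted. The labels' protocols name intratracheal infection with adenovirus or lentivirus and intraperitoneal tamoxifen in corn oil for all samples, without tying a virus or a dose to a group, and the driver alleles are not given in the sources used here. In each tumor type, H3K4me3, H3K4me1, H3K27ac, H3K27me3 and Foxa1/2 (1 antibody for both proteins) were profiled, and Nkx2-1 in positive tumors only. Each group had 2 libraries, but the 2 deposited files of a group were identical, so each group gave 1 list and no result below has a replicate check. Each histone group held 1 male and 1 female mouse, whereas Foxa1/2 came from males in positive and from females in deleted tumors, so sex and tumor type cannot be told apart for Foxa1/2. Whole tumors hold stroma and immune cells besides tumor cells, so a mark gained in some cells and a change in cell makeup cannot be told apart. The labelled tissue was not checked against marker genes, since gene positions of the build used (mm9) were not at hand.

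H3K4me3 is the histone mark of active and poised promoters and is also found, more weakly, at strong enhancers. H3K4me1 marks enhancers and the flanks of promoters, H3K27ac marks enhancers and promoters in use, and H3K27me3 is laid down by the Polycomb complex over silenced developmental genes, where it can sit together with H3K4me3 in a state called bivalent. Nkx2-1 is a homeodomain factor of the lung lineage, and Foxa1 and Foxa2 are forkhead factors of lung and gut epithelium that can bind closed chromatin.

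Gained islands were small and weak in comparison with kept islands, as a description of what the rule picks. Their width had a median of 800 bp, with quartiles of 600 and 1000 bp and a maximum of 4800 bp, against a median of 1600 bp for kept islands. Their read count had a median of 30 reads, from 15 to 577, against 194 reads for kept islands. Per kb they held a median of 41.7 reads (quartiles 35.0 and 51.7) against 127 reads (quartiles 56.0 and 403) in kept islands. Of the 987, 824 (83.5%) lay below the lower quartile of kept density and 3 lay above the kept median. All gained islands together covered 838 kb, or 1.34% of the autosomal bases under H3K4me3 in deleted tumors, and held 0.191% of the reads in those islands. Only 22 (2.23%) held 100 reads or more, and 72 (7.29%) were 1600 bp wide or wider. Weak islands lie near the calling threshold, and whether the positive tumors had reads just below it at these places was not tested. The positive list was the longer one, with 40685 autosomal islands over 102 Mb with 28275722 reads, against 62.5 Mb with 19168762 reads in deleted tumors. Its smallest island over all chromosomes nevertheless held 23 reads, against 15 in the deleted list, and 278 gained islands held 15 to 25 reads. Whether these unequal floors bear on which islands count as gained was not tested.

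**Figure D1:**
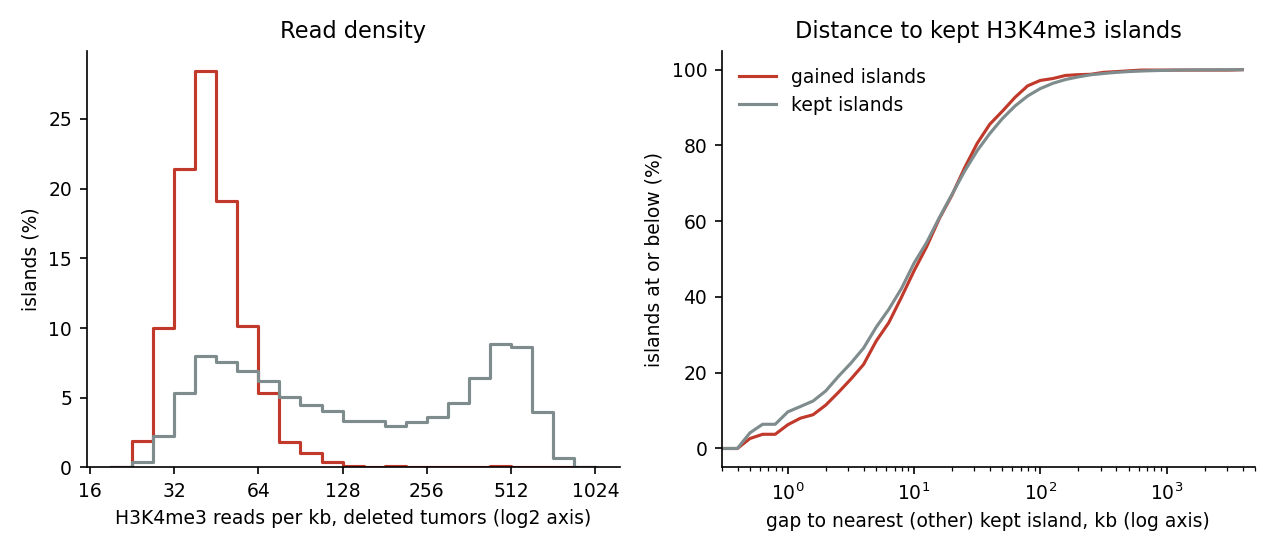
Left, H3K4me3 reads per kb in deleted tumors (log2 axis) as the percentage of gained and kept islands in each bin; right, the cumulative percentage of islands by the gap in kb (log axis) to the nearest kept island, or nearest other kept island. Gained islands form a single low peak around their median of 41.7 reads per kb, while kept islands spread up to 967, and the curves of distance nearly coincide.

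At the edge of the rule, the gained island closest to a positive-tumor H3K4me3 island lay at chr1:36605401-36606600, with a gap of 0 bp and 29 reads (24.2 per kb). The next, at chr2:84903201-84904200, also had a gap of 0 bp and held 32 reads. Just outside the rule, the kept islands at chr1:58055401-58056000 and chr1:128824801-128825200 shared 200 bp with a positive-tumor island and held 24 and 22 reads. Gaps of at most 1000 bp were found at 93 gained islands (9.42%), and an overlap of 200 bp or less at 75 kept islands (0.256%).

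Most gained islands lay in chromatin that carried H3K4me1 or H3K27ac in tumors with Nkx2-1 too. The tumor types came from different mice, so prior, new and lost marks below mean present in positive tumors, in deleted tumors only and in positive tumors only. In positive tumors H3K4me1 was present at 817 of 987 (82.8%, 95% Wilson interval 80.3 to 85.0) and H3K27ac at 666 (67.5%, 64.5 to 70.3), where present means that an island of the mark covered at least 1 bp. The background over all deleted-tumor H3K4me3 islands was 97.5% for H3K4me1 and 87.9% for H3K27ac. At least one of both marks was present at 850 gained islands (86.1%), a lower share than the 28937 of 29243 kept islands (98.95%). H3K27me3 was present in positive tumors at 168 (17.02%, 14.8 to 19.5), against a background of 16.4%. No mark of the 3 was present at 83 (8.41%), against 210 of 29243 kept islands (0.718%). These intervals and all others below cover counting error only and not the spread between mice.

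Gained islands had carried H3K4me1 and H3K27ac less often than kept islands, while the difference in H3K27me3 over all islands had an interval that includes 0. The difference from kept islands was -15.2 percentage points for prior H3K4me1 (95% Newcombe interval -17.7 to -13.0) and -21.2 points for prior H3K27ac (-24.2 to -18.3). Both had this sign on 19 of 19 chromosomes, in each of 5 classes of island width and in each of 5 classes of read count. For prior H3K27me3 the difference was 0.628 points, with an interval of -1.63 to 3.13 that includes 0. Gained islands were lower in 4 of 5 classes of width (-5.23 to 9.78 points), and at 100 reads or more 9 of 22 (40.9%) had prior H3K27me3, against 15.8% of kept islands. Per the labels, the 4 histone marks of a tumor type share the same input controls, so these readouts are not independent of the H3K4me3 libraries that chose the islands.

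In deleted tumors, H3K4me1 and H3K27ac were present at more of the gained islands than before. H3K4me1 went from 82.8% to 90.0% (888 islands, 87.9 to 91.7), H3K27ac from 67.5% to 78.1% (771 islands, 75.4 to 80.6) and H3K27me3 from 17.02% to 21.8% (215 islands, 19.3 to 24.5), against backgrounds of 97.3%, 87.2% and 19.8%. At kept islands the same 3 marks went from 98.0% to 97.6%, from 88.6% to 87.5% and from 16.4% to 19.7%. H3K27me3 was more frequent at both classes in deleted tumors. Kept islands of at least 1600 bp went from 95.4% to 95.7% under H3K27ac. Width bears on this comparison: the difference from kept islands in deleted-tumor H3K27ac was -9.43 points over all widths (-12.1 to -6.94), but gained islands were higher in 4 of 5 classes of width, from -0.130 to 8.48 points. The positive lists covered 287 Mb of autosomes with H3K27ac and 323 Mb with H3K4me1, against 223 and 295 Mb in deleted tumors. Whether list length bears on the shares at gained islands was not tested.

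**Figure D2:**
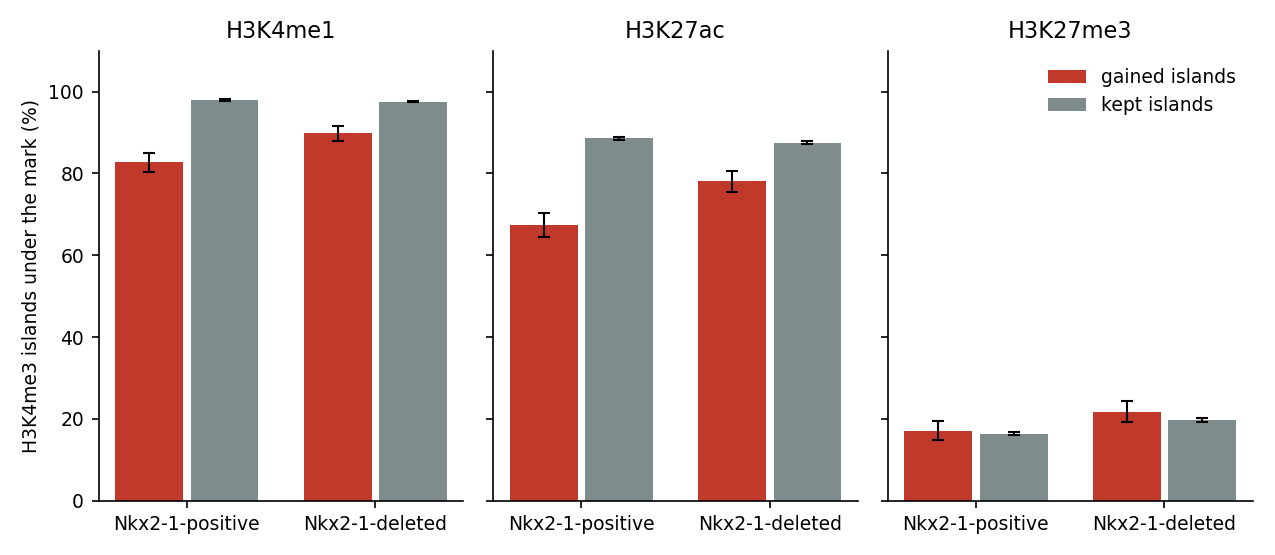
Percentage of H3K4me3 islands overlapped by H3K4me1, H3K27ac and H3K27me3 islands in each tumor type, for 987 gained and 29243 kept islands; error bars are 95% Wilson intervals over islands. H3K27ac at gained islands stood at 67.5% and 78.1%, and at kept islands at 88.6% and 87.5%.

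The single largest group had the same combination of marks in both tumor types, each counted as present from 1 bp of overlap, so that the covered length could still differ. H3K4me1 with H3K27ac and without H3K27me3 was the state of 602 gained islands in positive tumors (61.0%) and of 649 in deleted tumors (65.8%), and 558 islands held it in both. The combination of the 3 marks was the same in both tumor types at 728 gained islands (73.8%) and at 26372 kept islands (90.2%). Other starting states were held less often: 4 of 26 islands with H3K27ac alone, 34 of 108 with H3K4me1 alone, 23 of 54 with H3K27me3 alone and 36 of 83 with no mark had the same state in deleted tumors. Kept islands held these states in 46.8%, 48.6%, 58.3% and 63.3% of cases. All 3 marks were held at 25 of 31 gained islands, H3K4me1 with H3K27me3 at 45 of 76 and H3K27ac with H3K27me3 at 3 of 7. The kept shares there were 81.7%, 85.1% and 56.0%. Of 108 islands with H3K4me1 alone, which is the pattern of a primed enhancer, 53 held H3K4me1 with H3K27ac in deleted tumors and 34 held H3K4me1 alone again. At kept islands these counts were 206 and 393 of 808. Of 83 islands with none of the marks, 36 had none in deleted tumors either, 17 had H3K4me1 with H3K27ac, 14 had H3K4me1 alone and 8 had all 3. The kept counts were 133, 10, 32 and 4 of 210.

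**Figure D3:**
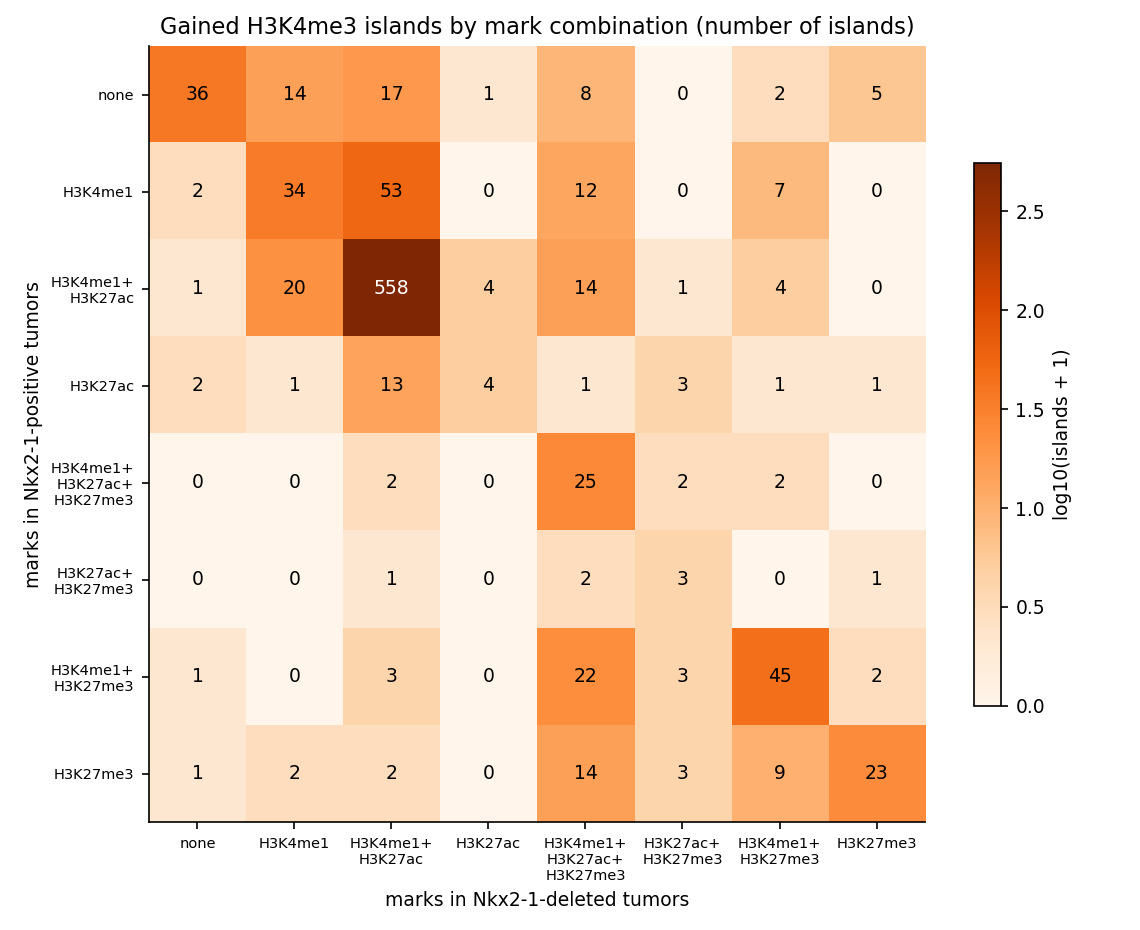
Number of gained H3K4me3 islands for each combination of H3K4me1, H3K27ac and H3K27me3 in positive tumors (rows) and in deleted tumors (columns); the color follows log10 of the number plus 1. The cell of H3K4me1 with H3K27ac in both holds 558 islands, and the 36 islands with no mark in either lie in the first cell.

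New H3K27ac accompanied new H3K4me3 at a minority of the islands. H3K27ac was present in deleted tumors only at 138 gained islands (13.98%, 11.96 to 16.3), against a background of 2.28%, and in positive tumors only at 33 (3.34%), against a background of 2.98%. The latter share was lower in gained than in kept islands in each of 5 classes of width. H3K27ac was present in both at 633 and in neither at 183. The share with H3K27ac in deleted tumors only was 12.1 points higher in gained than in kept islands (10.1 to 14.4; 19 of 19 chromosomes), between 7.94 and 24.1 points in classes of width and between 6.51 and 39.3 points in classes of read count. Since fewer gained islands began with H3K27ac, the comparison was also made among islands without it in positive tumors, a step chosen after seeing the data. There, 138 of 321 gained islands (43.0%, 37.7 to 48.5) and 552 of 3324 kept islands (16.6%, 15.4 to 17.9) carried H3K27ac in deleted tumors, a difference of 26.4 points (20.9 to 32.0). Of the 138, 93 (67.4%) had H3K4me1 in positive tumors, 47 (34.1%) had H3K27me3 and 26 had neither. Of the 552 kept islands with new H3K27ac, these were 525 (95.1%), 276 (50.0%) and 24. At 120 of the 138 (87.0%) the H3K27ac island itself overlapped no H3K27ac island of positive tumors, against 95.7% of the 552. At the other 18 gained islands it overlapped one elsewhere along its length.

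The covered bases moved in the same direction. H3K27ac covered 67.8% of the bases of gained islands in positive tumors and 81.8% in deleted tumors. Its cover was higher in deleted tumors at 187 gained islands (18.9%) and lower at 52 (5.27%), where the backgrounds were 10.9% higher and 15.4% lower. For H3K4me1 the cover of gained islands went from 80.3% to 89.6% of bases, higher at 136 (13.8%) and lower at 22 (2.23%), against backgrounds of 7.47% and 2.58%. Kept islands went from 96.0% to 97.3% of bases under H3K4me1. H3K4me1 was present in deleted tumors only at 87 gained islands (8.81%), against a background of 0.853%, and in positive tumors only at 16 (1.62%), against 0.982%. Among islands without H3K4me1 in positive tumors, 87 of 170 gained (51.2%, 43.7 to 58.6) and 171 of 595 kept islands (28.7%, 25.2 to 32.5) had it in deleted tumors.

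New H3K27ac was most frequent at the gained islands with the most H3K4me3 reads, without a steady order at low counts. Read count also follows width. From the lowest to the highest class of reads, gained islands had median widths of 400, 800, 800, 1200 and 2800 bp. Their median densities were 48.8, 37.5, 38.8, 43.0 and 67.0 reads per kb. Whether width or density bears on new H3K27ac here was not tested. Among the 22 gained islands with 100 reads or more, 21 had H3K27ac in deleted tumors and 9 had it in deleted tumors only (40.9%, 23.3 to 61.3). Of islands with 39 to 99 reads, 22.4% (17.3 to 28.5) had it in deleted tumors only, and of those with 15 to 25, 26 to 30 and 31 to 38 reads, 13.7%, 8.40% and 10.1%. Kept islands of the same 5 classes ranged from 1.57% to 2.48%. Of the 72 gained islands at least 1600 bp wide, all 72 were under H3K27ac in deleted tumors and 54 in positive tumors. Among those up to 600 bp wide the shares were 65.4% and 57.0%. A wide island has more room to meet another island, and its share with H3K27ac in deleted tumors was also 95.7% for kept islands of at least 1600 bp.

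**Figure D4:**
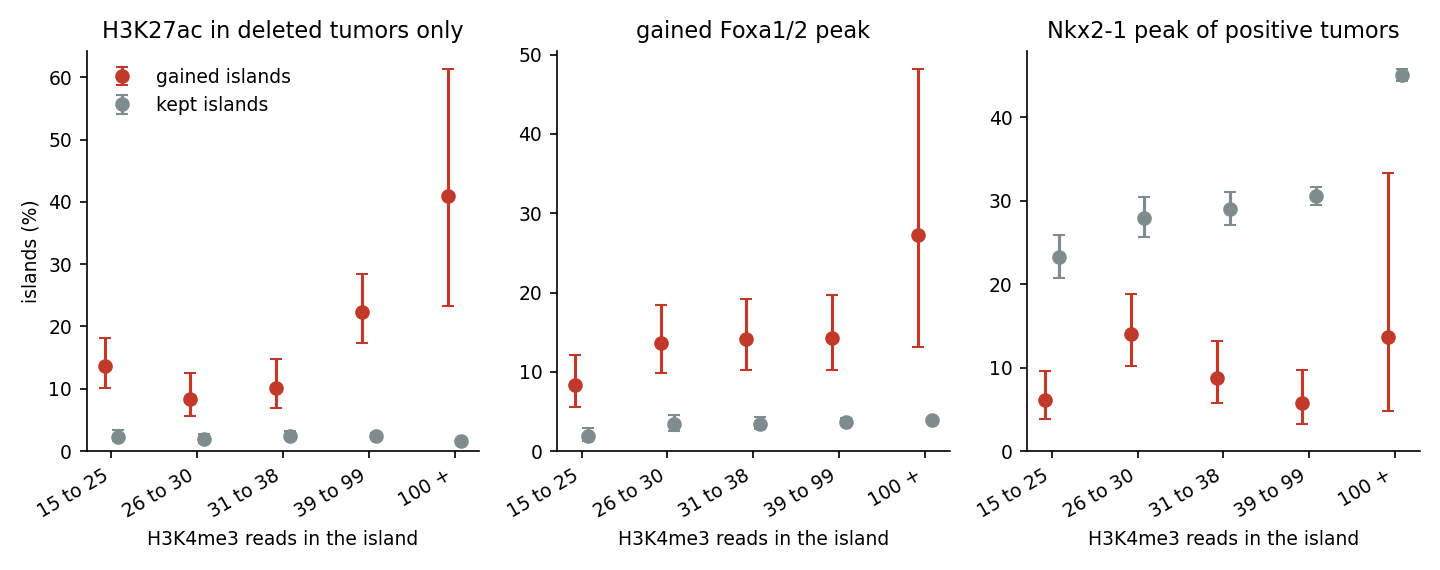
Percentage of gained and kept islands with H3K27ac in deleted tumors only (left), with a deleted-tumor Foxa1/2 peak absent from positive tumors (middle) and with an Nkx2-1 peak of positive tumors (right), by the number of H3K4me3 reads in the island; bars are 95% Wilson intervals and the vertical scales differ. Gained islands lie above kept islands in the left and middle panels in every class of reads and below them in the right panel.

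Polycomb-marked islands that gained H3K4me3 mostly kept H3K27me3. Of the 168 gained islands under H3K27me3 in positive tumors, 156 were under it in deleted tumors too, so they joined H3K4me3 and H3K27me3 in these bulk lists. H3K27ac was present at 38 of the 168 (22.6%) in positive tumors and at 82 (48.8%, 41.4 to 56.3) in deleted tumors, and H3K4me1 went from 107 (63.7%) to 129 (76.8%). At the 4794 kept islands under H3K27me3 in positive tumors, H3K27ac was present at 51.9% before and 51.2% after. Among islands with H3K27me3 and without H3K27ac in positive tumors, H3K27ac was present in deleted tumors at 47 of 130 gained islands (36.2%, 28.4 to 44.7) and 276 of 2306 kept islands (11.97%, 10.7 to 13.4), a difference of 24.2 points (16.3 to 32.8).

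H3K27me3 was present in positive tumors only at 12 gained islands (1.22%, 0.697 to 2.11), against a background of 0.533%, and in deleted tumors only at 59 (5.98%, 4.66 to 7.63), against 3.88%. H3K27me3 cover was higher in deleted tumors at 71 gained islands (7.19%) and lower at 20 (2.03%), against backgrounds of 6.05% and 1.23%. Among islands with H3K27me3 in positive tumors, 12 of 168 gained (7.14%, 4.13 to 12.1) and 149 of 4794 kept islands (3.11%, 2.65 to 3.64) lacked it in deleted tumors, a difference of 4.03 points (0.979 to 8.98). Of the 12, 8 were under H3K27ac and 10 under H3K4me1 in deleted tumors, against 99 and 133 of 149 kept islands. Of the 59, 39 (66.1%) were also under H3K27ac there, against 80.1% of 1113 kept islands, a difference of -14.04 points (-26.97 to -3.01). Width bears on this difference too: gained islands were higher in 3 of 5 classes of width, from -5.37 to 19.5 points. Bulk lists do not show whether both marks lie on the same alleles.

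Foxa1/2 peaks that were absent from positive tumors lay in gained islands more often than in kept islands. A Foxa1/2 peak of deleted tumors overlapped 239 gained islands (24.2%, 21.6 to 26.98), against a background of 18.6%, and a gained peak, meaning one that overlaps no positive-tumor Foxa1/2 peak, overlapped 125 (12.7%, 10.7 to 14.9), against a background of 4.01%. For gained peaks the difference from kept islands, where the share was 3.72%, was 8.94 points (7.00 to 11.2), with this sign on 18 of 19 chromosomes. It lay between 5.64 and 20.3 points in classes of width and between 6.34 and 23.4 in classes of read count. Of the 242 Foxa1/2 peaks of deleted tumors at gained islands, 125 (51.7%, 45.4 to 57.9) were gained, against 1114 of 5769 (19.3%, 18.3 to 20.4) at kept islands and 32.9% of all 14282 autosomal peaks. Their summit lay inside the island in 182 of 242 cases (75.2%), against 5209 of 5769 (90.3%) at the wider kept islands, a median of 213 bp from its centre. Gained islands and gained peaks are both defined by an absence in positive tumors, and the part of the overlap that this sets was not tested.

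Foxa1/2 of positive tumors showed the opposite pattern. It had a peak at 146 gained islands (14.8%, 12.7 to 17.1), against a background of 24.8%, and a peak lost in deleted tumors at 30 (3.04%, 2.14 to 4.31), against a background of 11.0%. The difference from kept islands was -8.22 points for lost peaks (-9.19 to -6.90; 19 of 19 chromosomes). Among the gained islands, those with a gained Foxa1/2 peak were under H3K27ac in 83.2% of cases before and 98.4% after, and under H3K4me1 in 92.0% and 100%. Kept islands with a gained peak were under H3K27ac in 97.0% before and 98.7% after. The 114 gained islands with a Foxa1/2 peak shared with positive tumors had H3K27ac at 92.1% before and 99.1% after, and 0 of them had H3K27me3 in positive tumors. Kept islands with a shared peak had H3K27ac at 99.4% and 99.1%, and 1.73% had H3K27me3 in positive tumors. No Foxa1/2 peak in either tumor type lay at 718 gained islands (72.7%), against 71.7% of kept islands. These 718 had H3K27ac at 60.4% before and 71.0% after and H3K27me3 at 21.9% and 27.6%. Kept islands with no peak had H3K27ac at 84.7% and 83.5% and H3K27me3 at 21.9% and 25.8%. Among gained islands without H3K27ac in positive tumors, a comparison added after seeing the data, 19 of 21 with a gained peak (90.5%, 71.1 to 97.3) and 108 of 284 with no Foxa1/2 peak (38.03%, 32.6 to 43.8) had H3K27ac in deleted tumors. The kept counts were 22 of 33 (66.7%, 49.6 to 80.2) and 507 of 3218 (15.8%, 14.5 to 17.1). Without that condition the shares did not differ in this way. New H3K27ac was found at 19 of 125 gained islands with a gained peak (15.2%) and at 108 of 718 with no Foxa1/2 peak (15.04%). At kept islands these shares were 2.02% and 2.42%.

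By prior state, gained Foxa1/2 peaks lay at 101 of the 602 gained islands that had H3K4me1 with H3K27ac in positive tumors (16.8%), at 7 of 108 with H3K4me1 alone (6.48%), at 6 of 83 with no mark (7.23%) and at 2 of 54 with H3K27me3 alone. Kept islands of the same states had them in 4.33%, 1.98%, 0.476% and 1.04% of cases. The state of H3K4me1 with H3K27ac thus came first in both classes, while the order of the other states differed.

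Nkx2-1 had bound few of the gained islands. An Nkx2-1 peak of positive tumors overlapped 87 of them (8.81%, 7.20 to 10.7), against a background of 38.0%. The difference from kept islands was -30.2 points (-31.9 to -28.2), with this sign on 19 of 19 chromosomes and between -45.0 and -12.7 points over the classes of width. Nkx2-1 and the positive-tumor H3K4me3 list that gained islands avoid were measured in the same tumor type, and the part of this contrast that the rule sets was not tested. Per the labels, an input library of Nkx2-1 also served the histone marks of positive tumors, so these lists are not independent.

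The reverse list, H3K4me3 islands found only in positive tumors, differed from the gained islands in the same readouts. It held 12935 autosomal islands with a median of 53.5 reads per kb in its own list. An Nkx2-1 peak overlapped 41.6% (40.8 to 42.5) of them, and a lost Foxa1/2 peak 24.4% (23.7 to 25.1), against 8.81% and 3.04% of gained islands. A gained Foxa1/2 peak overlapped 1.91% (1.69 to 2.16) of them, so gained islands were 10.8 points higher (8.81 to 12.99), and H3K27ac in deleted tumors only was found at 0.479%, which is 13.5 points below gained islands (11.5 to 15.8). H3K27ac was already present in positive tumors at 88.3% of this list, which leaves few islands where it could be new. It was present in positive tumors only at 16.6%, against 3.34% of gained islands. Islands of this list were also wider, with a median of 1200 bp against 800 bp. Nkx2-1, H3K27ac and Foxa1/2 of positive tumors share the tumor type that defines this list, as above.

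Gained islands lay about as far from kept islands as kept islands lay from each other. The gap to the nearest kept H3K4me3 island had a median of 11.2 kb (quartiles 4.40 and 25.8 kb), against 10.6 kb (3.60 and 27.2 kb) between kept islands. Within 5 kb of a kept island lay 280 gained islands (28.4%, 25.6 to 31.3), within 1 kb 62 (6.28%), beyond 20 kb 320 (32.4%) and beyond 100 kb 28 (2.84%). The same shares between kept islands were 32.0%, 9.67%, 32.6% and 4.99%. The gap to the next gained island had a median of 363 kb, and only 37 gained islands formed 18 runs with gaps of at most 5 kb. The largest run, singled out after its values were seen, had 3 islands at chr1:133866601-133872000, all under H3K4me1, H3K27ac and H3K27me3 in deleted tumors, of which 2 overlapped a gained Foxa1/2 peak. By chromosome the gained share of deleted-tumor islands ran from 2.63% on chromosome 4 to 4.43% on chromosome 3.

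The chromatin of gained islands varied with that distance. H3K27ac in deleted tumors was present at 85.5% of gained islands within 1 kb of a kept island, 87.6% at over 1 to 5 kb, 80.4% at over 5 to 20 kb, 70.9% at over 20 to 100 kb and 32.1% (17.9 to 50.7) at over 100 kb. Kept islands by the distance to another kept island ran from 92.9% within 1 kb to 62.5% at over 100 kb. H3K27me3 in positive tumors went the other way, from 11.3% of gained islands within 1 kb to 7 of 28 at over 100 kb, and kept islands ran from 12.3% to 42.6%. H3K27ac in deleted tumors only showed no such order, at 12.9%, 11.0%, 15.5%, 14.7% and 10.7%. Median width of gained islands also fell over these classes of distance, at 1000, 800, 800, 600 and 600 bp. Its bearing on the trends with distance was not tested. Of the 771 gained islands under H3K27ac in deleted tumors, 211 (27.4%) shared that H3K27ac island with a kept H3K4me3 island. Those H3K27ac islands were wide, with a median of 5400 bp against 2200 bp for all H3K27ac islands of deleted tumors, and 4000 bp at kept islands, and a wide island is met by an overlap more easily.

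The widest gained island, which also held the most reads, lay at chr7:31857401-31862200 (build mm9, as all positions here) and held 577 H3K4me3 reads over 4800 bp, more than 64.3% of deleted-tumor islands. H3K4me1 covered 0% of it in positive tumors and 100% in deleted tumors, and H3K27ac covered 33.3% and 100%. H3K27me3 covered 20.8% and 16.7%. A gained Foxa1/2 peak lay in it, and the nearest kept H3K4me3 island was 16.6 kb away. The next by width, at chr12:103592201-103596000, held 190 reads and was under H3K4me1 and H3K27ac over 100% of its length in both tumor types. The island at chr17:25888201-25891800 held 347 reads. H3K4me1 and H3K27ac both covered 0% of it in positive and 100% in deleted tumors, and H3K27me3 went from 55.6% to 100%. Its H3K27ac island spanned 25886201 to 25896200 and was absent from positive tumors.

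Among islands that started from active chromatin, the one at chr4:6397201-6400400 held 423 reads, the third most. Its H3K27ac cover went from 56.3% to 100% and its H3K4me1 cover from 93.8% to 100%, and it held a gained Foxa1/2 peak with a score above 94.97% of the deleted-tumor list. The island at chr1:132723001-132726400 (268 reads) lay inside an H3K27ac island of 32200 bp, wider than 99.6% of the deleted-tumor list. Its H3K4me1 cover went from 23.5% to 100% and its H3K27ac cover from 52.9% to 100%, and it too held a gained Foxa1/2 peak.

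Of the islands with no prior mark, the widest lay at chr7:29618801-29620800 (84 reads) and at chr14:66593201-66595200 (72 reads). H3K4me1 covered 100% of both in deleted tumors, and H3K27ac 100% of the first and 20.0% of the second. The second lay 0.4 kb from a kept H3K4me3 island and the first 5.6 kb. From H3K4me1 alone, the island at chr3:100629201-100631000 (194 reads) went from 33.3% to 100% H3K4me1 cover and from 0% to 100% H3K27ac cover, under an H3K27ac island of 11400 bp that was absent from positive tumors. The other, at chr6:28777001-28779400 (93 reads), was fully under H3K4me1 in both and went from 0% to 100% under H3K27ac.

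The widest islands with H3K27ac alone in positive tumors had more of their length under it in deleted tumors. The one at chr16:32107801-32110800 (84 reads) went from 60% to 80% H3K27ac cover with 0% H3K4me1 in both tumor types. That at chr6:86578201-86580000 (74 reads) went from 44.4% to 77.8% H3K27ac cover, and its H3K4me1 cover went from 0% to 100%.

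Other wide islands under H3K27me3 in positive tumors had it over most of their length in both tumor types. The island at chr3:90496601-90499800 (125 reads) was 100% under H3K27me3 in both tumor types, had no H3K4me1, and went from 0% to 37.5% H3K27ac cover. On chr7:25542601-25545600 (105 reads) the H3K27me3 cover was again 100% in both, and H3K27ac went from 0% to 26.7%. The island at chr14:34899201-34901800 (162 reads) combined all of these changes. H3K27me3 covered 92.3% of it in positive and 100% in deleted tumors, H3K4me1 38.5% and 100%, H3K27ac 0% and 100%, and it held a gained Foxa1/2 peak with a score above 96.8% of its list. With all 3 marks in positive tumors, the islands at chr6:122518601-122521000 (86 reads) and at chr1:167621401-167623000 (44 reads) had 100% cover by H3K27ac and H3K27me3 in both tumor types.

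Besides that on chromosome 14, the widest islands with both new H3K27ac and a gained Foxa1/2 peak lay at chr5:115414401-115416400, chr10:107798001-107799600, chr2:170252401-170253600 and chr19:25456201-25457400. All 4 went from 0% to 100% H3K27ac cover under H3K27ac islands absent from positive tumors. Those on chromosomes 5, 2 and 19 were 100% under H3K27me3 in both tumor types, and that on chromosome 10 had none. In all, 19 of the 138 islands with new H3K27ac held a gained Foxa1/2 peak (13.8%), against 12.7% of all gained islands.

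Among the 12 islands that had H3K27me3 in positive tumors only, the widest lay at chr19:10309801-10311600 with 70 reads, chr7:39014801-39015800 with 33 reads and chr10:7078201-7079200 with 100 reads. H3K27me3 cover in positive tumors was 22.2%, 100% and 100%, and 0% in deleted tumors at each. H3K4me1 went from 0% to 100% at all of them. The first went from 0% to 100% under H3K27ac and the last from 0% to 80%, whereas the middle one was fully acetylated before and after.

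**Figure D5:**
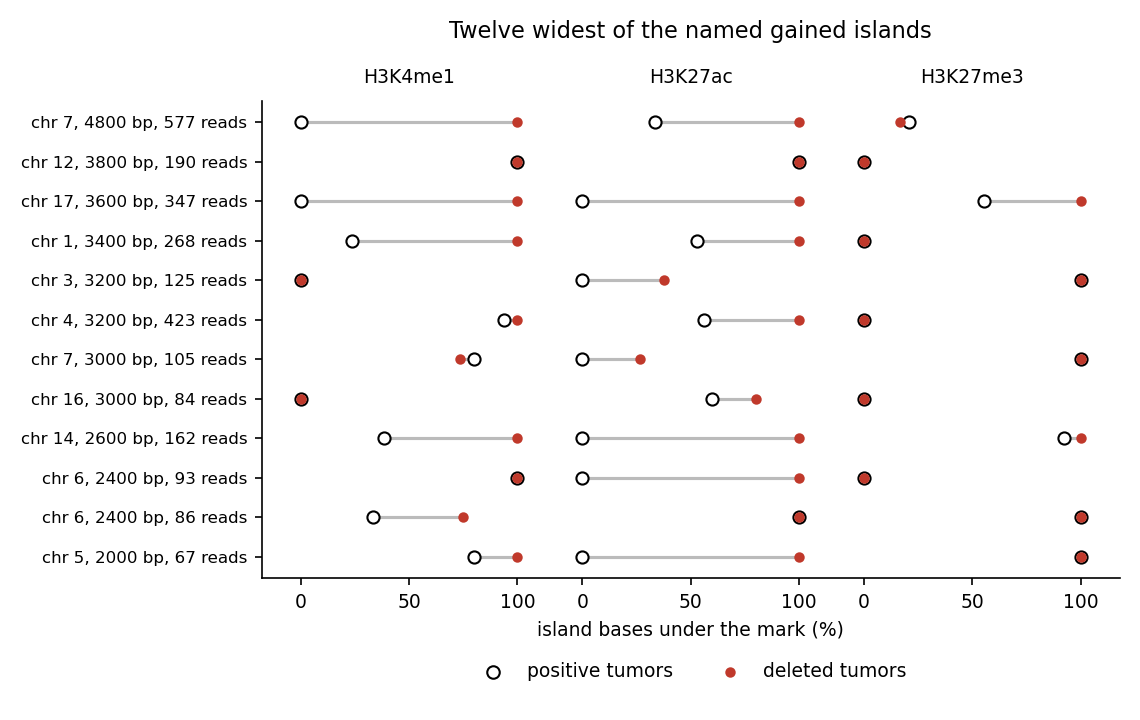
Percentage of island bases under H3K4me1, H3K27ac and H3K27me3 for the widest of the named gained islands, with open circles for positive tumors and red points for deleted tumors; each row gives the chromosome, the width and the H3K4me3 reads. H3K27ac moves to the right or stays at 100% in every row shown, while H3K27me3 stays near its starting value in all rows but that of chromosome 17 (55.6% to 100%).

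The densest gained island and the next by density did not follow these patterns. The island at chr2:98502201-98503200 held 437 reads in 1000 bp, and that at chr9:3022001-3022400 held 74 reads in 400 bp (185 per kb). Neither was under H3K4me1, H3K27ac or H3K27me3 in either tumor type. Both overlapped an Nkx2-1 peak of positive tumors, with scores of 911 and 262. Whether reads map uniquely at these positions was not tested, so their density and scores may not compare with those of other islands. Together with chr4:6397201-6400400 they are the 3 gained islands denser than the kept median.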

How the data were processed

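Peak and island lists of 22 libraries were used, in 11 groups of 2 with identical files, and 9 inputs were not used. Build mm9 and the tools SICER 1.1, MACS 1.4.2 and Bowtie come from the submitters' processing notes, which assign them no step. The deposited lists are named as merged over both libraries, with 200 bp windows for islands. Each deposited island carries a read count, not scaled for depth, used here within a list, apart from list totals and smallest counts. Each deposited peak carries a score of the authors' peak caller, used for ranks within a list. The end column of the islands is the last base, and positions are 1-based. Members and lists of readouts were chosen with earlier results of these data known. Named islands were the 3 widest, the 3 with most reads, the 3 densest, the widest 2 of each prior state with at least 20 islands, the widest 5 with new H3K27ac and a gained Foxa1/2 peak, the widest 3 that lost H3K27me3, and those at the rule's edge. The gene tables at hand are of another build, so no gene or sequence was assigned. Overlap code was tested on simulated data. Computation used Python 3.11.15, numpy 2.4.6, pandas 2.3.3 and matplotlib 3.10.9. With 1 list a group, no p-value was computed. Shares have 95% Wilson and differences 95% Newcombe intervals. Alternatives were a 50% cover (summit inside for peaks), a gap over 1000 bp, the upper 50% of lists, chromosome X, and comparisons among islands that lacked the mark or peak, added after seeing the data.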

Additional observations from a re-analysis of the deposited data

How the results depend on the processing

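No paired analysis was possible because both files of each group were identical. Chromosome X left all results within their intervals. With islands over 1000 bp from a positive-tumor H3K4me3 island, 894 were gained and 23.2% lay within 5 kb of a kept island, a share this cut lowers by construction. With summits inside the island, shares were 18.4% for Foxa1/2, 9.93% for gained Foxa1/2 and 6.28% for Nkx2-1, and the gained Foxa1/2 difference was 6.67 points. In the upper 50% of deleted-tumor islands by reads, only 9 gained islands were left, which limits every value there. They had H3K4me1 and H3K27ac at 55.6% and H3K27me3 at 33.3% in positive tumors, H3K27ac at 88.9% and H3K27me3 at 33.3% in deleted tumors, new H3K27ac at 33.3%, lost H3K27me3 at 0%, Foxa1/2 and gained Foxa1/2 at 44.4%, Nkx2-1 at 11.1%, 11.1% within 5 kb and a median of 103.5 reads per kb. Their differences from kept islands were 32.0 points (new H3K27ac), 40.6 (gained Foxa1/2) and 19.02 (prior H3K27me3). With the upper 50% of mark and peak lists, shares in positive tumors were 51.3% (H3K4me1), 45.9% (H3K27ac) and 12.6% (H3K27me3), and in deleted tumors 62.5%, 60.8% and 15.8%. New H3K27ac was then 20.1%, Foxa1/2 15.9%, gained Foxa1/2 10.2%, Nkx2-1 3.04%, and the new H3K27ac difference 16.8 points, on lists that are shorter by construction. The prior H3K27me3 difference turned to -0.746 points (-2.71 to 1.50); its interval included 0 before as well, and the cause was not tested. Among islands without positive-tumor H3K27ac, the new H3K27ac difference was 26.4 points. The differences for new H3K27ac and gained Foxa1/2 kept their sign in every setting run. Read counts of 15 to 577 limit single islands.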
